A study of Mus musculus with 16 samples.

Results

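The RNA of growing mouse oocytes was compared between 2 size classes, 40–45 µm and 60–65 µm in diameter, the span over which the same study followed DNA methylation. Genes entered the comparison when they reached at least 0.5 RPKM, that is, reads per kilobase of exon scaled to a fixed number of mapped reads, in at least 2 of the 4 RNA libraries of these classes. Of 25965 genes in the table, 10129 (39.0%) did so. The 4 libraries are among 16 samples of wild-type C57BL/6 oocytes (C57BL/6Babr in the methods), which carried no transgene, mutant allele or treatment, sorted by hand from ovaries of pre-pubertal mice. Each library pooled oocytes of several animals, so the replicates A and B of a class are pools, and p-values measure the spread between pools. The donors of the 40–45 µm class were 7 to 12 days old and those of the 60–65 µm class 13 to 16 days old by the written methods, while a list of libraries gives 7 to 10 and 12 to 18 days, so diameter and the age of the mouse cannot be told apart. Methylation was read from 2 reduced representation bisulphite sequencing (RRBS) libraries of each of these classes, which sample CpG-rich fragments, and from 1 post-bisulphite adaptor tagging (PBAT) library of 60–65 µm, which samples the whole genome. RNA of 50–55 µm and 10–30 µm oocytes, in duplicate, and 1 column for germinal vesicle (GV) oocytes gave further levels.

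A mouse oocyte arrests in meiotic prophase before birth, then grows inside its follicle while it is transcriptionally active, and stores RNA and protein for the embryo. DNA methylation, erased earlier in the germ line, is laid down during this growth by DNMT3A with its cofactor DNMT3L. It is placed mainly across transcribed gene bodies, where transcription brings H3K36 methylation, while most CpG-rich gene starts carry H3K4 methylation and stay free of it.

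The 4 RNA libraries held between 105100000 and 191100000 reads, rounded, as recovered from the smallest steps of the RPKM values, so that 0.5 RPKM stood for 52.6 to 95.5 reads per kilobase. Replicates correlated with r = 0.990 at 40–45 µm and 0.994 at 60–65 µm across genes on the log2 scale. Oocyte markers were high in all 4 libraries (Gdf9, an oocyte growth factor, at 501 to 580.0 RPKM). Blood cell markers summed to 0.328 to 0.651 RPKM, and none of the 10 in the table reached the filter. Granulosa cell markers behaved unevenly. Of 18, only 7 passed the filter, of which 4 rose and 1 fell, beside 18.6% and 18% of all tested genes. The median log2 fold change of the 7 was 0.79. Inha and Cyp19a1, both risers, passed the filter only through the 60–65 µm libraries. The summed level of the 18 was 25.2 and 24.2 RPKM at 40–45 µm and 28.7 and 27.4 RPKM at 60–65 µm. Much of that sum was Serpine2 (means of 13.6 and 13.1 RPKM, not called) and Cdkn1b (6.03 and 4.83 RPKM, the faller). Inha and Nr5a2 rose with log2 fold changes of 0.97 and 0.79. With no filter on low values, 7 of the 18 rose and 1 fell. The defining genes Amh, Foxl2 and Fshr were below the filter, between 0.0145 and 0.238 RPKM in every library, with Fshr at 0.0288 and 0.0806 RPKM and then at 0.238 and 0.229 RPKM, whereas Cyp19a1, aromatase, rose from 0.267 and 0.227 RPKM to 1.25 and 1.04 RPKM (log2 fold change 1.78 ± 0.14, SE, adjusted p = 0.00041). Of 15 markers of stroma, theca and vessels, 1 passed the filter, the adhesion molecule Pecam1, which rose from 1.57 and 1.38 RPKM to 4.71 and 4.19 RPKM. The part of other cells in the expression changes was not tested, and in pooled RNA a change in the mix of cells and a change of RNA per cell cannot be told apart.

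Over this span 1883 genes (18.6% of those tested) rose and 1828 genes (18% of those tested) fell at an adjusted p under 0.05. RPKM and its scaling are relative to the other RNA of a library, so RNA per oocyte was not measured. The paper states that the mRNA content of oocytes rises substantially during growth. A fall here is a lower share of the RNA, which need not be less RNA per oocyte. Most of the changes were modest. The rise was at least 2-fold for 421 genes (4.16%) and the fall for 184 (1.82%). The middle 90% of all log2 fold changes lay between −0.71 and 0.91, on the scale of log2(scaled RPKM + 0.1). With 1 added in place of 0.1 the 2-fold counts were 115 and 44, and at a minimum of 2 RPKM 181 and 90. In all 3711 called genes the libraries of the classes did not overlap in RPKM as deposited. Over all tested genes, on the same unscaled values, both 60–65 µm libraries lay above both of 40–45 µm in 43.2% and below them in 30.4%. With RPKM as deposited, without scaling between libraries, the split was 2280 risen and 1449 fallen. Without library A of 60–65 µm the counts dropped to 784 and 570, and without 40–45 µm A, 40–45 µm B or 60–65 µm B they lay between 1194 and 1413 risen and between 1089 and 1167 fallen.

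The 50–55 µm oocytes stood between the classes compared, and their libraries entered the estimate of the spread but not the contrast. Mean log2 levels there were intermediate for 1875 of the 1883 risen genes and for 1746 of the 1828 fallen genes, against 62.1% of the uncalled genes, and by then a median of 61.1% of the rise and 60.9% of the fall had taken place, beside 60.8% of the difference in uncalled genes. The median RPKM of the risen genes was 1.44 and 1.60 in the 10–30 µm libraries, 1.93 and 1.89 at 40–45 µm, 2.71 and 2.57 at 50–55 µm, 3.44 and 3.17 at 60–65 µm and 3.78 in GV oocytes. That of the fallen genes was 4.55 and 4.53, then 3.36 and 3.51, then 2.75 and 2.82, then 2.36 and 2.51, and 2.05 in GV oocytes. Both sets thus had their extreme levels outside the span that was compared.

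Oog3, a gene of the Oog family of oocyte-expressed leucine-rich repeat proteins, rose most among the named genes. It stood at 7.45 and 2.76 RPKM at 40–45 µm, 40.1 and 27.3 RPKM at 50–55 µm and 70.7 and 61.1 RPKM at 60–65 µm (log2 fold change 3.75 ± 0.42, adjusted p = 0.000691). Its relatives Oog4 (13.6 and 9.84 RPKM to 63.0 and 55.1 RPKM, log2 fold change 2.26) and Oog2 (4.97 and 3.29 RPKM to 16.4 and 14.4 RPKM, log2 fold change 1.83) rose as well, as did C87977 (7.13 and 4.37 RPKM to 28.6 and 25.9 RPKM). These 4 genes lay together on chromosome 4 of GRCm38, between 143437164 and 144213318. Of 21 genes in that interval 10 passed the filter, and all 10 had risen, beside 18.6% of all tested genes. Among the 10 were Pramef17 and 5 predicted genes. The interval is bounded by the named risers Oog4 and C87977 and was chosen, like its genes, after their values were seen. A second such group, chosen in the same way, lay on chromosome 5 between 94339749 and 95026536. It is bounded by AA792892 (log2 fold change 1.75) and AC130832.1 (2.06). There 4 of 10 genes passed the filter and all 4 had risen, beside 18.6% of all tested genes. Tandem families such as these hold near-identical copies, and only 1 alignment per read was kept, so how the reads are shared among the copies is uncertain.

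The first 300 bases around the start of Oog3, 250 before and 50 after it, are shown as RefSeq gives them for GRCm38.p6 because they hold hardly a CpG, the dinucleotide that both bisulphite assays read. The window is chr4:144162602-144162901 on the minus strand, and CpGs are in capitals, 1 in all.
Oog3 promoter: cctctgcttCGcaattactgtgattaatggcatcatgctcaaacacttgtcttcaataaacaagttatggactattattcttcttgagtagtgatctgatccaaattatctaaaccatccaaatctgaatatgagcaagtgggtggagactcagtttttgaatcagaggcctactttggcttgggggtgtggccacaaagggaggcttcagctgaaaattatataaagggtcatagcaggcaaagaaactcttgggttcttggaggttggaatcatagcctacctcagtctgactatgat
In the same 300 bases around the start given in the table, the 12 named risen genes had a median of 2.5 CpGs and the 12 named fallen genes 14. Of these risers 6 lie in the tandem groups on chromosomes 4 and 5, and Spry4, with 27 CpGs, was well above the others. Over all genes risen at least 2-fold the median was 7 CpGs and over those fallen at least 2-fold 15, but over all risen genes it was 17, over all fallen genes 19 and over all tested genes 20, with a window for at least 98.4% of each set.

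The other named risers were of several kinds. Spry4, an inhibitor of receptor tyrosine kinase signalling, went from 2.65 and 2.46 RPKM to 20.1 and 14.9 RPKM (log2 fold change 2.64 ± 0.19, adjusted p = 0.000392). Ehf, an epithelial ETS transcription factor, went from 2.36 and 1.41 RPKM to 10.2 and 8.39 RPKM (log2 fold change 2.20 ± 0.26). Both were clear of their 40–45 µm libraries by more than the gap between replicates, which the choice of the named genes favours. Ifitm6, of the interferon-induced transmembrane family, rose with a log2 fold change of 1.87, and Gpx6, a glutathione peroxidase, with 1.76. AB099516 (2.01) and Mettl7a2 (1.88), a methyltransferase-like gene, overlap on the same strand of chromosome 15, so their reads cannot be told apart. In all 12 named risers replicate A had the higher RPKM at 40–45 µm and also at 60–65 µm. In all 12 named fallen genes, given next, replicate A had the lower RPKM at 60–65 µm, while at 40–45 µm either replicate was the higher.

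Sohlh1, a helix-loop-helix factor that drives the early growth of the follicle, fell most among the named genes. Its level was 8.99 and 13.4 RPKM at 40–45 µm, 2.98 and 3.51 RPKM at 50–55 µm, 1.17 and 1.74 RPKM at 60–65 µm and 0.274 RPKM in GV oocytes (log2 fold change −2.93 ± 0.22, adjusted p = 0.000392). The 12 named fallen genes held 2 of meiotic chromosomes. Smc1b, the meiotic cohesin subunit, fell from 14.4 and 13.1 RPKM to 4.01 and 5.10 RPKM (log2 fold change −1.66 ± 0.15), and Sycp3, of the axis of the synaptonemal complex, from 20 and 14.8 RPKM to 5.24 and 6.86 RPKM (−1.58 ± 0.22). Maged1, a MAGE-family gene on the X chromosome, fell from 11.5 and 17.7 RPKM to 2.73 and 3.76 RPKM (−2.19 ± 0.23), and Rps23, a ribosomal protein, from 88.3 and 89.2 RPKM to 29.3 and 36.02 RPKM (−1.52 ± 0.16). The non-coding RNA Malat1 (−1.57), the sarcomere gene Myot (−1.81), the ciliary transport gene Ift27 (−1.57), Rangap1 of nuclear transport (−1.51), the myosin light chain gene Myl12b (−1.48), the mitochondrial dehydrogenase Hsd17b10 (−1.46) and the histone gene Hist2h2bb (−1.37) completed the 12. All 24 named calls, rising and falling, were kept without each of the 4 libraries in turn. The same naming criteria held for 64 predicted genes that rose and 69 that fell.

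**Figure D1:**
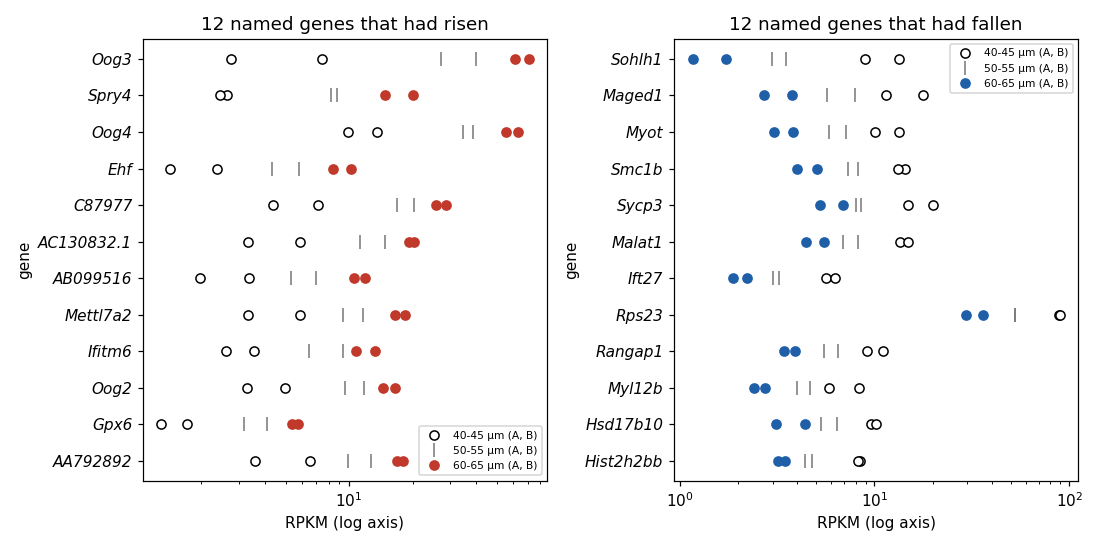
RPKM on a log axis of the 12 named risen genes (left) and the 12 named fallen genes (right) in each 40–45 µm (open), 50–55 µm (tick) and 60–65 µm (filled) library. In every gene the 50–55 µm libraries fall between those of the other classes, as for Oog3 at 40.1 and 27.3 RPKM and Sohlh1 at 2.98 and 3.51 RPKM.

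The counts of risen and fallen members of each gene list below stand against 18.6% risen and 18% fallen of all tested genes. The transcription factors of follicle formation went both ways. Of 14 tested members of 15, 5 had risen and 4 fallen, with a median log2 fold change of 0.16 against 0.00147 over all tested genes. Figla, which turns on the zona pellucida genes, fell from 28.7 and 28.8 RPKM to 11.6 and 12.6 RPKM (−1.32 ± 0.12, adjusted p = 0.000465), and with it Sohlh1 and its partner Sohlh2 (3.17 and 4.69 RPKM to 1.18 and 1.49 RPKM) and Tbpl2, the oocyte form of the TATA-binding protein (12.9 and 13.4 RPKM to 7.84 and 8.92 RPKM). Obox2, an oocyte homeobox gene, had the largest rise of the list, from 88.6 and 63.5 RPKM to 189 and 183 RPKM (1.24 ± 0.18), and Obox1, Obox5, Sebox and Gtf2a1l rose too. Nobox was at 44.4 and 55.5 RPKM and later at 59.5 and 59.2 RPKM (adjusted p = 0.224), and Lhx8 at 15.6 and 16 RPKM and later at 17.5 and 14.95 RPKM (adjusted p = 0.768), neither called. Of the 9 calls, 8 were kept without each library in turn, all but Gtf2a1l. Obox genes are close paralogs, so their separate levels are uncertain.

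Among zona pellucida and oocyte-secreted proteins, 2 of 14 tested genes had risen and 3 fallen (median log2 fold change 0.07), close to the shares over all genes. The 3 fallen were Zp2, Zp3 and Ooep, of which the paper counts Ooep to the subcortical maternal complex. Zp2, of the egg coat, fell from 998 and 1118 RPKM to 620 and 734 RPKM (−0.72 ± 0.13, adjusted p = 0.00374), and Zp3 from 722 and 962 RPKM to 595 and 650 RPKM (−0.50 ± 0.14). Zp1 was at 283 and 359 RPKM, then 256 and 272 RPKM (adjusted p = 0.0923), and Gdf9 at 501 and 561 RPKM, then 580 and 529 RPKM (adjusted p = 0.936). The secreted factor Bmp15 rose from 139 and 124 RPKM to 213 and 217 RPKM (0.63 ± 0.11), and Gm97, an older symbol of Oosp3, rose by the largest amount of the list (1.00 ± 0.25). The calls of Zp2 and Bmp15 were kept without each library in turn, though that of Zp2 was lost with no filter on low values, and those of Zp3, Gm97 and Ooep were not.

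Of 15 genes of the subcortical maternal complex and related maternal-effect proteins, all tested, 3 had risen and 5 fallen, with a median log2 fold change of −0.28. Padi6 fell from 1272 and 1687 RPKM to 884 and 1006 RPKM (−0.71 ± 0.15), Nlrp5 from 383 and 451 RPKM to 290 and 298 RPKM (−0.57 ± 0.11) and Dppa3, which shields maternal chromatin from demethylation in the zygote, from 393 and 349 RPKM to 213 and 248 RPKM (−0.76 ± 0.16). Zar1l had the largest rise, with a log2 fold change of 0.70. Tle6 was at 263 and 317 RPKM, then 238 and 248 RPKM, and was not called, and the gene Khdc3, listed as 2410004A20Rik, fell from 204 and 181 RPKM to 150 and 153 RPKM. None of the 8 calls was kept without every library in turn, and 4 of them (Padi6, Nlrp5, Dppa3 and Zar1l) were kept without each of the other libraries and lost without 60–65 µm A. The call of Padi6 was also lost with no filter on low values.

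Genes that make, read or remove DNA methylation differed by less than 2-fold apart from Dnmt3l. The RNA of Dnmt3l went from 3.65 and 2.70 RPKM to 11.3 and 8.25 RPKM (log2 fold change 1.52 ± 0.19, adjusted p = 0.000925). Dnmt3a, its catalytic partner, was at 2.79 and 3.05 RPKM and then at 3.76 and 3.48 RPKM, a log2 difference of 0.23 ± 0.13 that was not called (adjusted p = 0.2). Dnmt3b rose from 1.02 and 1.04 RPKM to 1.70 and 1.68 RPKM (0.59 ± 0.09). Dnmt1, the maintenance enzyme, was at 398 and 486 RPKM, then 376 and 389 RPKM (adjusted p = 0.138), which on this per-length scale lay far above Dnmt3a in each library. In all, 3 of 11 tested members rose and 0 fell at an adjusted p under 0.05 (limma), beside 18.6% and 18% of all tested genes, and the calls of Dnmt3l and Dnmt3b were kept without each library in turn, that of Uhrf2 not.

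Of 14 tested regulators of H3K4 methylation, of 17 in the table, 1 rose and 4 fell, beside 18.6% and 18% of all tested genes, and the median log2 fold change was near 0 (−0.02). The demethylase Kdm1b, which is needed for methylation at several imprinted loci in the oocyte, fell from 99.8 and 107 RPKM to 65.5 and 73.7 RPKM (−0.65 ± 0.10, adjusted p = 0.0025). Kdm5a fell from 1.65 and 1.54 RPKM to 0.975 and 1.13 RPKM (−0.63), and Kdm5b, also a demethylase, from 0.566 and 0.751 RPKM to 0.308 and 0.275 RPKM (−1.01 ± 0.14). The related Kdm1a (5.22 and 6.20 RPKM, then 5.31 and 5.39 RPKM) was not called. Rbbp5, a subunit of the methyltransferase complexes, rose (0.45), and its call was lost without 40–45 µm B or 60–65 µm A.

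For H3K36 methylation, 2 of 12 tested members of 14 rose and 1 fell (median 0.27), not above the shares over all genes. With the letter A or B as a further term in the fit 5 of the 12 rose and 1 fell, beside 2315 risen of all 10129 genes. Setd2, the enzyme that trimethylates H3K36 in gene bodies, was at 4.43 and 4.89 RPKM and then at 6.48 and 6.30 RPKM (0.37 ± 0.14, adjusted p = 0.0613), so that its libraries did not overlap but the test was not passed. Nsd1, which dimethylates the same residue, was at 3.59 and 3.95 RPKM and then at 4.72 and 4.34 RPKM (adjusted p = 0.175), Whsc1 at 2.53 and 2.84 RPKM and then at 2.67 and 2.64 RPKM, and Ash1l at 0.955 and 1.01 RPKM and then at 1.39 and 1.22 RPKM. The demethylase Kdm2b rose most (0.69 ± 0.19) and the methyltransferase Smyd2 fell, from 2.38 and 3.31 RPKM to 1.12 and 1.26 RPKM (−1.25 ± 0.15). Of these calls that of Smyd2 was kept without each library in turn.

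Genes of meiotic prophase had mostly fallen where called. The table held 25 of them, of which 17 passed the filter, 8 had fallen and 1 risen, and the median log2 fold change was −0.48. Beside Smc1b and Sycp3 the falls were of Sycp1, Syce1, Hormad1, Mael, Tex11 and Prdm9, with log2 fold changes from −1.58 to −0.98. Sycp1, of the central synaptonemal complex, went from 5.40 and 2.96 RPKM to 1.69 and 2.18 RPKM (adjusted p = 0.0132) and lost its call without 60–65 µm A, while Stag3, a cohesin subunit, stood at 0.691 and 0.893 RPKM and then at 0.675 and 0.672 RPKM. Msh4 rose slightly (0.39 ± 0.12), a call that was lost without any 1 of the 4 libraries. The list held 4 fallen genes where the filter was set at 2 RPKM, since 9 members then remained.

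The start of Sycp3 is shown because the gene fell with a CpG-containing start of low methylation. The window is chr10:88459337-88459636 on the plus strand of GRCm38.p6, from RefSeq, with its 15 CpGs in capitals.
Sycp3 promoter: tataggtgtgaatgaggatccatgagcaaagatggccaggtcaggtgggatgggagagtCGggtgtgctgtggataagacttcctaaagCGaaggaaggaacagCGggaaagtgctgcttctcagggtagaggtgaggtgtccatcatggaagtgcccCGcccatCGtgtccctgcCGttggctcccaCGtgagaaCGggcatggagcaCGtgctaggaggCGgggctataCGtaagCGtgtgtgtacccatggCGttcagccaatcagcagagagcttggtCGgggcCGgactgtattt
In PBAT the 15 positions of this window that passed the coverage minimum of 5 reads had a mean of 4.19%, from 94 calls. RRBS gave means of 1.58% and 0.205% in the 40–45 µm libraries and 2.74% and 0.971% in the 60–65 µm libraries over 13 positions within 500 bp of the start, with 1.83% and 9.18% in the 50–55 µm libraries.

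For meiotic arrest and resumption, 6 of 20 tested members had risen and 1 fallen, beside 18.6% and 18% of all tested genes (median 0.21). Without 60–65 µm A, or without 60–65 µm B, 1 had risen and 0 fallen at an adjusted p under 0.05 (limma). Gpr3, the receptor whose signal holds the arrest, rose from 3.19 and 3.96 RPKM to 6.06 and 6.07 RPKM (0.68 ± 0.18), and Ccnb3, a cyclin, had the largest rise, from 0.781 and 0.625 RPKM to 1.85 and 1.57 RPKM (1.11 ± 0.20, adjusted p = 0.00469). Pde3a, the phosphodiesterase that lowers cAMP at resumption, was at 9.31 and 10.7 RPKM and then at 16.2 and 13.7 RPKM (adjusted p = 0.0558), Wee2 at 50.8 and 47.8 RPKM and then at 58.8 and 60.3 RPKM, and Mos at 90.3 and 76.5 RPKM and then at 109 and 108 RPKM, none of them called. Prkar2b fell (−0.40 ± 0.11). Of the 7 calls only that of Ccnb3 was kept without each library in turn.

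At the egg surface and in egg activation 4 of 13 tested genes rose and 1 fell (median 0.20), with 2 risen without 60–65 µm A. Folr4, which encodes JUNO, the egg receptor for sperm IZUMO1, rose from 9.49 and 8.10 RPKM to 16.2 and 15.7 RPKM (0.78 ± 0.11, adjusted p = 0.00154), and the zinc transporter Slc39a10 was almost level with it (0.77). The tetraspanin Cd9 was at 26.6 and 25.5 RPKM and then at 25.3 and 23.5 RPKM, Itpr1 at 10.8 and 12.7 RPKM and then at 12.2 and 11.4 RPKM and Astl at 200 and 181 RPKM and then at 160 and 169 RPKM, and none was called. The tetraspanin Cd81 fell, at low level, from 0.689 and 0.736 RPKM to 0.331 and 0.263 RPKM (−1.10 ± 0.16).

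In the junctions and growth signalling between oocyte and granulosa cells 4 of 13 tested genes rose and 1 fell (median −0.04), with 1 risen without 60–65 µm A. The gap junction gene Gja4 was at 60.1 and 72.1 RPKM and then at 83.2 and 81.5 RPKM (adjusted p = 0.195), Kit at 23.3 and 33.4 RPKM and then at 27.7 in both libraries, and Igf1r at 3.81 and 5.61 RPKM and then at 4.57 and 4.20 RPKM. Cdh1, E-cadherin, rose most (5.56 and 7.22 RPKM to 14.6 and 10.8 RPKM, 0.90 ± 0.21), a call lost without 40–45 µm A or 60–65 µm A. In SMAD signalling, which relays the oocyte's own growth factors, 2 of 11 tested genes rose and 0 fell, again at an adjusted p under 0.05 (limma), with Smad3 highest (0.66 ± 0.12), and without 60–65 µm A both calls were lost. Smad1, Smad2 and Smad4 were not called, with log2 differences of −0.05, 0.11 and 0.09.

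Of 22 tested genes of maternal RNA storage and translational control 1 rose and 2 fell (median −0.08), where 36.6% of all tested genes were called. Ybx2 was at 35.2 and 44.6 RPKM and then at 39.4 and 36.8 RPKM, Cpeb1 at 34.2 and 39.1 RPKM and then at 40.6 and 31.2 RPKM, and Ddx6 and Lsm14a had log2 differences of −0.26 and 0.01. Of 17 genes of maternal RNA decay 1 rose and 2 fell (median 0.11), and Btg4, an adaptor of the CCR4-NOT deadenylase, was at 175 and 129 RPKM and then at 197 and 200 RPKM (adjusted p = 0.207). The risers Pabpc1l (0.42) and Pan3 (0.46) and the fallers Tdrd3 (−0.35) and Zfp36l2 (−0.65) had the largest called changes of these lists, and all 4 calls were lost without any 1 of the 4 libraries.

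The most uniform lists were those of the ribosome and the respiratory chain. All 81 cytosolic ribosomal protein genes had a negative log2 fold change, from −1.52 to −0.13 with a median of −0.56, and 60 of the 81 had fallen and 0 risen. Their summed RPKM was 2278 and 2314 at 40–45 µm, 1794 and 1666 at 50–55 µm and 1599 and 1638 at 60–65 µm. It had been 3724 and 2902 at 10–30 µm and was 1382 in GV oocytes. Rpl3 went from 21.0 and 21.4 RPKM to 14.2 and 15.4 RPKM (−0.59 ± 0.15), Rps3 from 9.45 and 8.92 RPKM to 5.21 and 5.47 RPKM (−0.84 ± 0.17), Rplp0 from 56.6 and 59.9 RPKM to 44.2 and 45.1 RPKM (−0.46 ± 0.14) and Rpsa from 12.2 and 13.4 RPKM to 7.98 and 8.13 RPKM (−0.74 ± 0.14). The count of calls leaned on each library, with 25, 27, 6 and 27 fallen genes without 40–45 µm A, 40–45 µm B, 60–65 µm A and 60–65 µm B, while the median stayed between −0.64 and −0.53 and at least 80 genes stayed negative. These falls are in share of the RNA, and RNA per oocyte was not measured. Many of these genes have processed pseudogenes that can take part of the reads.

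Of 77 nuclear genes of oxidative phosphorylation, all tested, 50 had fallen and 0 risen (median −0.48, range −0.95 to 0.21). Cox4i1, of cytochrome oxidase, went from 76.3 and 84.1 RPKM to 54.5 and 51.5 RPKM (−0.67 ± 0.14), Cyc1, cytochrome c1, had the largest fall (6.07 and 7.71 RPKM to 3.63 and 3.74 RPKM, −0.95 ± 0.11), and Atp5a1, Ndufs1 and Uqcrc1 fell with log2 fold changes of −0.42, −0.43 and −0.62. The fallen genes numbered 25, 29, 11 and 26 without 40–45 µm A, 40–45 µm B, 60–65 µm A and 60–65 µm B. Of the 13 genes of the mitochondrial genome, counted after their values were seen, 6 had fallen and 0 risen, with log2 fold changes from −1.07 to −0.52 over the 13.

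In cholesterol synthesis and uptake, which the oocyte leaves largely to its granulosa cells, 9 of 22 tested genes fell and 3 rose (median −0.33). With a minimum of 2 RPKM, 11 genes were tested, of which 3 fell and 3 rose, and the median was 0.02. Sqle fell from 1.85 and 2.15 RPKM to 1.27 and 1.30 RPKM (−0.67 ± 0.10). Stard4, which moves sterols between membranes, had the largest rise (0.42 ± 0.11), and Hmgcs1 and Idi1 were not called (0.19 and 0.33). Of the 12 calls 6 were kept without each library in turn, all 6 of them falls. Of 10 snoRNA host genes found, 3 passed the filter and 1, Eif4a2, had fallen, a call lost without 40–45 µm A, 60–65 µm A or 60–65 µm B.

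**Figure D2:**
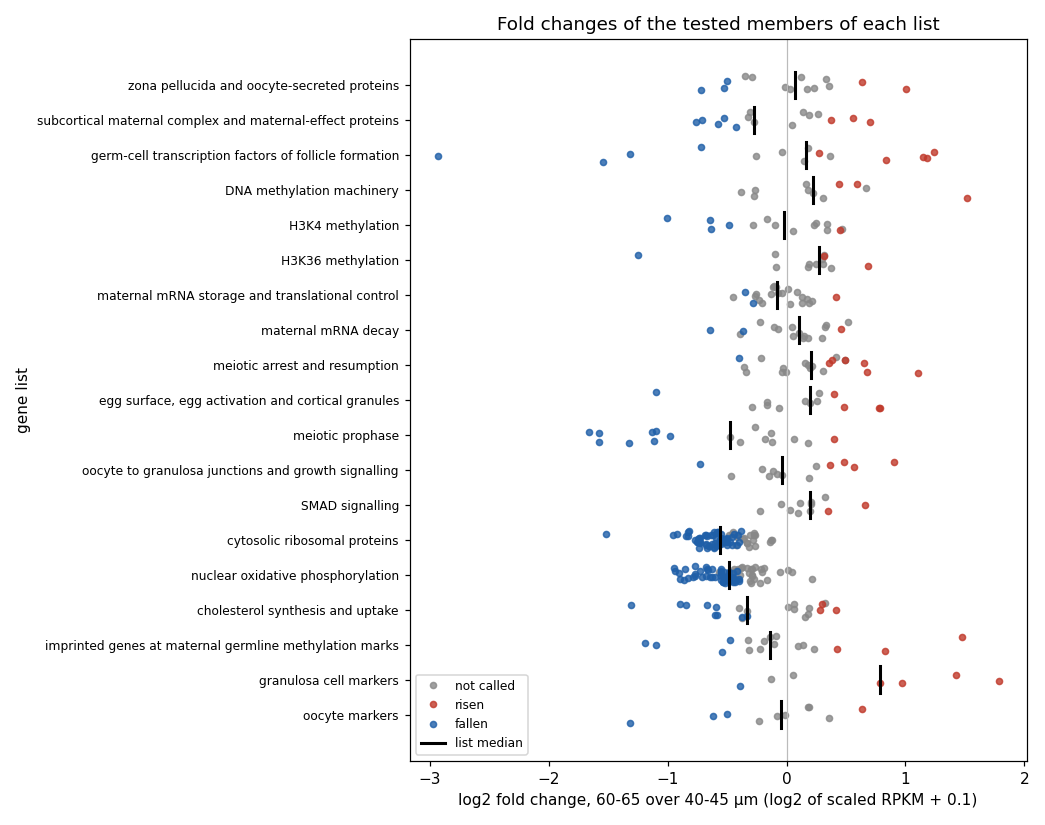
Log2 fold change from 40–45 to 60–65 µm of each tested member (points, coloured by call) of the lists with at least 7 tested members, with the median as a bar. Ribosomal protein genes (median −0.56) and nuclear genes of oxidative phosphorylation (−0.48) lie almost wholly below 0, and the transcription factors spread from −2.93 to 1.24.

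Genes with maternal germline methylation marks, where imprints are set in the oocyte, included 17 tested of 27 in the table, of which 3 rose and 4 fell (median −0.14), close to the shares over all genes. Without 40–45 µm B or 60–65 µm A 1 fell, and with no filter on low values 7 of 27 rose and 4 fell (median −0.01). Impact, an imprinted gene, fell from 3.68 and 3.49 RPKM to 1.63 and 1.80 RPKM (−1.09 ± 0.11, adjusted p = 0.000542), and Mcts2, an imprinted retrogene inside H13, from 0.831 and 1.17 RPKM to 0.420 and 0.376 RPKM (−1.19 ± 0.27). Usp29, next to Peg3, had the largest rise (1.48 and 1.04 RPKM to 3.87 and 3.78 RPKM, 1.48 ± 0.18), and Mest rose from 7.84 and 7.30 RPKM to 14.3 and 14.2 RPKM (0.83 ± 0.10). Igf2r was at 7.78 and 8.79 RPKM and then at 9.43 and 9.23 RPKM, Peg3 at 0.784 and 0.859 RPKM and then at 0.607 and 0.746 RPKM, and Blcap at 9.37 and 9.29 RPKM and then at 12.97 and 10.3 RPKM, none called. The calls of Impact, Mest and Usp29 were kept without each library in turn, and that of Mcts2 was lost without 40–45 µm B, 60–65 µm A or 60–65 µm B.

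By chromosome, genes on the X were called most often. Of 324 tested genes there, 78 rose and 90 fell, that is 51.9%, against 31.3% to 42.2% on the 19 autosomes and 36.6% over all tested genes. The excess was in both directions. Fallen genes were shorter than risen ones, with median spans in the genome of 16.7 kb and 27.6 kb (23.1 kb over all tested genes), and median lengths of merged exons of 3.44 kb and 4.46 kb where at least 90.0% of each set could be matched to GENCODE. Across genes, Spearman's rho between gene length and the log2 fold change was 0.151 (n = 10129 genes, which are not independent replicates).

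Methylation of the changed genes was then read over the same span. RRBS positions inside a gene and over 1 kb from any gene start were nearly unmethylated at 40–45 µm. For the 946 risen genes with at least 5 such positions the median over genes was 1.94% and 1.51% in the 40–45 µm libraries, 11.2% and 12.01% at 50–55 µm, and 26.1% and 27.8% at 60–65 µm. For 582 fallen genes it was 1.99% and 1.30%, then 10.5% and 10.6%, then 24.0% and 25.1%. Uncalled genes reached 32.2% and 33.5% (n = 2705), above both, and genes below the filter reached 2.60% and 1.76% (n = 4487). The gain between the classes exceeded the gap between replicates for risen, fallen and uncalled genes alike. No test was made on methylation, which is given as values by library, and with 2 libraries against 2 an exact two-sided permutation test could not go below p = 0.333. Median coverage was 20 to 29 calls per position in these 4 libraries, and intervals for single positions would cover counting error only.

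Genes that fell at least 2-fold had a lower median, which reached 6.11% and 5.29% in the 60–65 µm libraries (n = 65), against 20.02% and 20.3% for genes risen at least 2-fold (n = 194), from 1.73% and 1.16% and from 1.78% and 1.499% at 40–45 µm. Both 60–65 µm libraries stood at least 10 percentage points above both of 40–45 µm in 29.2% of the former and in 62.4% of the latter. Both shares were below the 73.7% of uncalled genes, and the shares were 68.0% of all risen and 61.2% of all fallen genes. Among genes below 2 RPKM at 60–65 µm the medians were 4.32% (n = 52) and 20.3% (n = 106), whereas between 2 and 5 RPKM they were 18.1% (n = 6) and 17.04% (n = 49), and between 5 and 20 RPKM 31.4% (n = 5) and 33.7% (n = 34). Above 20 RPKM they were 1.596% (n = 2) and 40.5% (n = 5). By length, the fallen and risen medians were 3.87% and 19.9% in genes of 4 to 10 kb (n = 7 and 16), 3.32% and 30.9% in genes of 10 to 20 kb (n = 11 and 20) and 5.19% and 25.3% in genes of 20 to 50 kb (n = 18 and 44). In genes over 50 kb they were close, at 19.2% and 20.04% (n = 24 and 107).

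**Figure D3:**
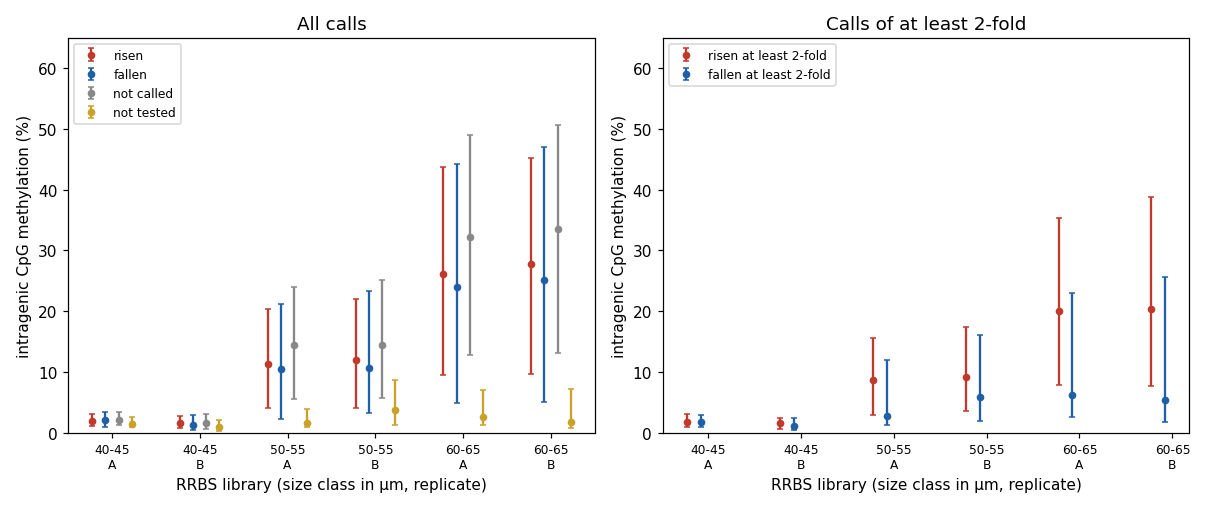
Median over genes, with quartiles as bars, of intragenic CpG methylation in percent in each RRBS library, for all called, uncalled and untested genes (left) and for calls of at least 2-fold (right). All called and uncalled sets start near 2% at 40–45 µm and spread by 60–65 µm, where genes fallen at least 2-fold stand at 6.11% and 5.29% and genes risen at least 2-fold at 20.02% and 20.3%.

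PBAT measured whole gene bodies in the 60–65 µm class, with no replicate library and a median of 6 calls per position. Genes that had risen had a median of 32.9% (n = 1681), those that had fallen 29.1% (n = 1479), uncalled genes 33.1% (n = 5714) and genes below the filter 8.58% (n = 9187). The order of risen and fallen genes turned when the first 2 kb of each gene were left out, with 46.5% and 50.6%. For calls of at least 2-fold the difference was larger and kept its order, with 31.5% for risen genes (n = 338) and 17.1% for fallen genes (n = 142), and 37.1% and 27.2% without the first 2 kb. Per autosome, the 2-fold risen genes had the higher median on 16 of 19, by 12.5 ± 12.5 percentage points (mean and SD over autosomes).

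Gene length moved with body methylation (rho = 0.374 across 8874 genes) and with the calls, so the sets were set side by side within length classes. In genes of 4 to 10 kb the 2-fold risen and fallen genes had medians of 15.1% and 6.97%, in genes of 10 to 20 kb 31.5% and 11.7%, in genes of 20 to 50 kb 33.7% and 20.2% and in longer genes 34.9% and 26.8%. The fallen set was lower in each of the 4 classes. Within classes of RNA level at 60–65 µm the fallen set was lower below 2 RPKM (26.2% and 18.0%, n = 187 and 108). It was also lower between 2 and 5 RPKM (34.9% and 17.1%, n = 82 and 19) and between 5 and 20 RPKM (38.3% and 13.01%, n = 57 and 15). No 2-fold fallen gene above 20 RPKM was measured. The intragenic RRBS medians showed no such gap between 2 and 5 RPKM (17.04% and 18.1%) or between 5 and 20 RPKM (33.7% and 31.4%), on few fallen genes. Across all genes the log2 fold change and body methylation were nearly unrelated, with rho = 0.0793.

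**Figure D4:**
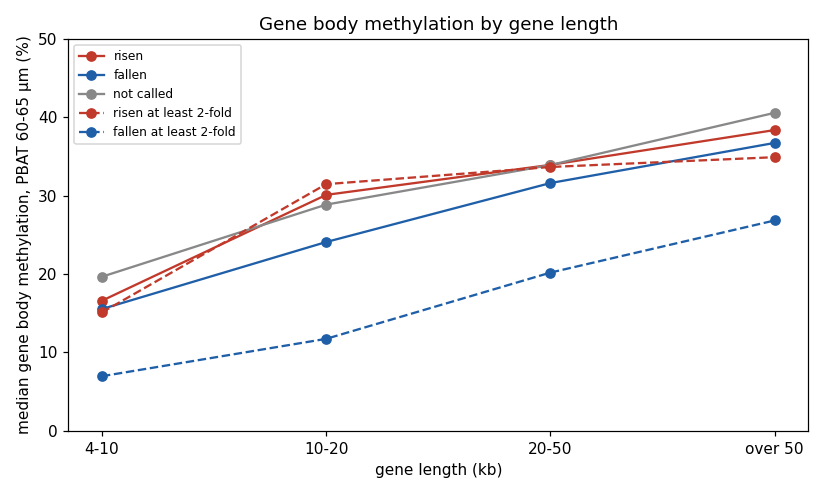
Median gene body methylation in percent in the 60–65 µm PBAT library by gene length in kb, for all calls (solid lines) and calls of at least 2-fold (dashed lines). Methylation rises with length in every set, and genes fallen at least 2-fold are lowest in each length class, from 6.97% to 26.8%.

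Among the named genes with most PBAT positions, Spry4 had 38.3% over 153 positions, AB099516 14.6% over 103 and Ehf 25.2% over 90, all risers. Of the fallen, Rangap1 had 32.2% over 244 positions, Myl12b 6.62% over 200 and Ift27 18.1% over 149. Intragenic RRBS positions of Spry4 went from 1.97% and 0.632% through 23.6% and 13.5% to 45.6% and 47.3% (24 positions), and those of Ift27 from a mean of 2.29% to 9.26% (22 positions). Sohlh1, the named gene that fell most, had 7.21% over 44 PBAT positions of its body. The body of Dnmt3l, itself a riser, had 51.7% over 194 positions, and its 6 intragenic RRBS positions went from 3.54% and 1.07% to 70.6% and 66.4%.

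Large intragenic gains were found in genes that rose and in genes that fell. Among risen genes Ambra1, an autophagy regulator, went from 1.92% and 0% at 40–45 µm through 47.5% and 67.5% at 50–55 µm to 83.8% and 84.1% at 60–65 µm (8 positions), while its RNA rose from 4.15 and 5.06 RPKM to 8.50 and 7.05 RPKM. Adamts3, Fam83f, Cmtm6 and Relt followed, with means of 70.7% to 78.6% at 60–65 µm. Among fallen genes Rpn1, of the oligosaccharyltransferase, went from 2.58% and 1.68% through 58.6% and 70.4% to 87.3% and 90.1% (5 positions), while its RNA fell from 8.83 and 9.94 RPKM to 6.01 and 6.65 RPKM (−0.63 ± 0.13). Mum1, Hyal3, Mri1 and Sdad1 followed, with 76.1% to 86.3%. The RNA changes of these 10 genes were all below 2-fold.

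Most gene starts stayed unmethylated whether RNA rose or fell. Within 500 bp of the start the RRBS medians were 0.585% and 0.298% at 40–45 µm and 0.591% and 0.496% at 60–65 µm for 1154 risen genes, and 0.59% and 0.286% and then 0.495% and 0.457% for 1279 fallen genes. The differences between classes were within the gap between replicates. Starts at or above 25% in both 60–65 µm libraries were found for 15 of the risen genes (1.3%), 11 of the fallen (0.86%) and 30 of 4886 uncalled genes (0.614%). For calls of at least 2-fold they were 2 of 148 risen genes (1.35%) and 4 of 104 fallen genes (3.85%). Gains of at least 10 percentage points in both libraries over both of 40–45 µm were found at 4.73% of the 2-fold risen and 4.81% of the 2-fold fallen starts, against 0.757% of uncalled ones. These 26 called genes were singled out after their values were seen. At 40–45 µm no called gene had a start at or above 25% in both libraries.

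Methylated starts therefore occurred on both sides. Among the fallen genes Tbpl1, a relative of the TATA-binding protein, had a start at 0.854% and 0.976% at 40–45 µm, 18.6% and 17.3% at 50–55 µm and 40.5% and 63.8% at 60–65 µm (26 positions), and its RNA went from 2.52 and 2.57 RPKM to 1.18 and 1.29 RPKM (−1.06 ± 0.10, adjusted p = 0.000542). Mcts2 went from 2.05% and 0.397% to 49.9% and 54.2% (18 positions), and Akap12, a scaffold of protein kinase A, from 2.24% and 0% to 53.7% and 62.0% (13 positions) with RNA at 44.8 and 59.7 RPKM and then at 31.8 and 32.5 RPKM. Among the risen genes S1pr3, a sphingosine 1-phosphate receptor, had a start at 1.25% and 0.819%, then 25.4% and 19.9%, then 54.0% and 54.6% (21 positions), and its RNA went from 0.928 and 1.02 RPKM to 2.92 and 2.62 RPKM (1.35 ± 0.11, adjusted p = 0.000432). Ccnb3, of the meiotic list, went from 7.94% and 9.61% to 47.4% and 49.0% (11 positions). Of the 26 genes 14 overlap another gene, 5 of them on the same strand (Mcts2, Ovca2, Gm20460, Ppt2 and Dgcr2) and 9, with Tbpl1 among them, on the opposite strand only. Which transcript the reads or the start belong to is uncertain for these 14.

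The starts of Tbpl1 and S1pr3 are shown because both gained methylation over the span while the RNA went in opposite directions. They are chr10:22731398-22731697 on the minus strand and chr13:51408368-51408667 on the plus strand of GRCm38.p6, from RefSeq, with 24 and 14 CpGs in capitals. The RefSeq start of Tbpl1 lies 491 bp downstream of the start given in the table, on which the RRBS values above are centred, so its window is inside the gene as the table places it, whereas for S1pr3 both starts are the same base.
Tbpl1 promoter: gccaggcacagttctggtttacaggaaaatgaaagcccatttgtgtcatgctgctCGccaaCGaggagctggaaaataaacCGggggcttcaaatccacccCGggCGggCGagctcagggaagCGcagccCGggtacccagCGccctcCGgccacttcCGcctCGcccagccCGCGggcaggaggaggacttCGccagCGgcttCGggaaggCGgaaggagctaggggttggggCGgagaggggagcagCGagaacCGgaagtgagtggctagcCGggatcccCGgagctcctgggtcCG
S1pr3 promoter: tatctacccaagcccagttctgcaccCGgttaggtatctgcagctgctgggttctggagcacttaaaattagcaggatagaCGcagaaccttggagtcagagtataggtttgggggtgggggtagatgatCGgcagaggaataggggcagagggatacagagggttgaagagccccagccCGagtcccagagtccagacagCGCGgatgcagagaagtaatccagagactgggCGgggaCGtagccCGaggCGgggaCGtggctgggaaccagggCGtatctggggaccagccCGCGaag
In the Tbpl1 window 9 RRBS positions were shared by the libraries, with means of 2.05% and 0.505% at 40–45 µm and 31.5% and 42.2% at 60–65 µm, and PBAT gave 34.9% over 20 positions and 167 calls. In the S1pr3 window no RRBS position was shared, and PBAT gave 69.8% over 15 positions and 128 calls. Both windows thus stood far above the 4.19% of the Sycp3 window in the same PBAT library.

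**Figure D5:**
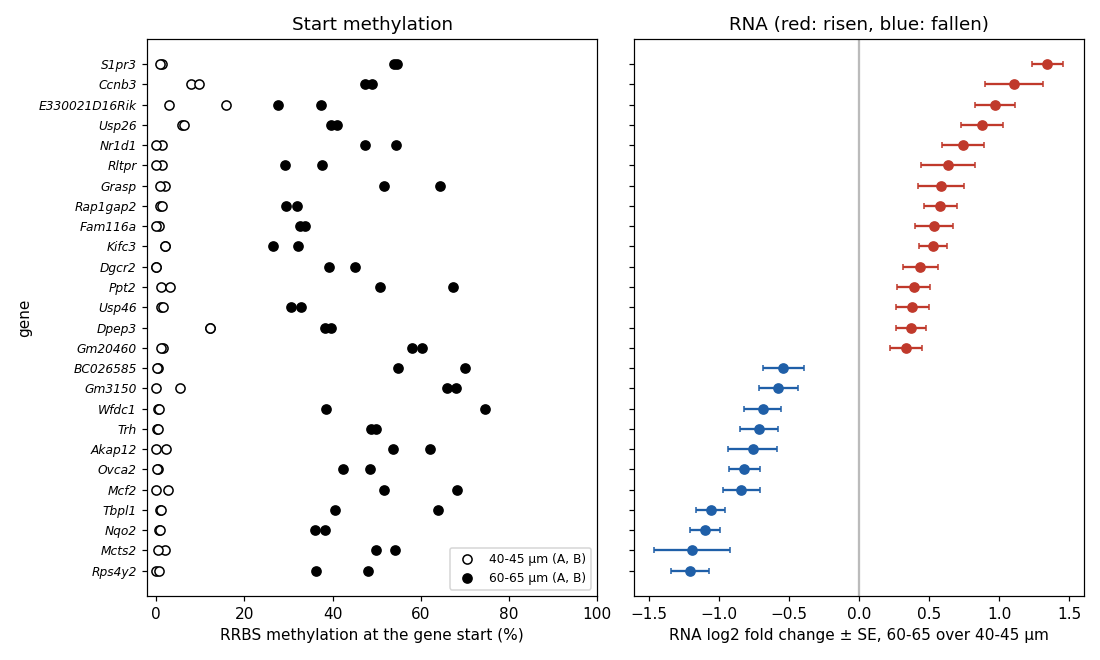
RRBS methylation in percent within 500 bp of the start (left) in each 40–45 µm (open) and 60–65 µm (filled) library, and RNA log2 fold change with its SE (right), for the 26 called genes whose start reached 25% in both 60–65 µm libraries. The means of the 60–65 µm libraries run from 37.1% to 66.9% in the 11 genes with falling RNA and from 29.3% to 59.2% in the 15 with rising RNA, with 40.5% and 63.8% for Tbpl1 and 54.0% and 54.6% for S1pr3.

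Start methylation at 60–65 µm had medians of at most 1.27% in every list with RRBS there. Single starts were higher, with highest values of 53.5% among imprinted genes, 48.2% in meiotic arrest and resumption and 23.3% in the DNA methylation machinery. The highest in meiotic prophase, that of Sycp1, rested on library A (20.4%, with 4.76% in B, 6 positions), and its 50–55 µm libraries gave 2.27% and 63.7%. For 67 ribosomal protein genes and 63 genes of oxidative phosphorylation with RRBS at the start, the medians at 60–65 µm were 0.528% and 0.503%, and the highest values 2.50% and 3.39%. In PBAT, without a replicate, the highest start values of the lists were 12.9% for Rps3 (39 positions) and 19.98% for Atp5d (28 positions). Ribosomal protein genes had a median body methylation of 11.8% (29 genes of at least 4 kb, median length of the whole list 3.14 kb) and genes of oxidative phosphorylation 19.5% (58 genes). Genes of oocyte junctions and growth signalling had 39.3% (12 genes) and those with imprinting marks 51.1% (15 genes). Impact, which fell, had 57.8% over 161 positions, Igf2r, which was not called, 54.9% over 634, and Mest, which rose, 35.3% over 221.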

How the data were processed

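RNA was sequenced as strand-specific total RNA in duplicate per size class. Per the labels and methods, reads were trimmed with Trim Galore 0.2.8 and aligned to GRCm38 with TopHat2 2.0.9, keeping 1 alignment per read. The authors deposited RPKM per gene. Their methods name Cufflinks for transcript expression and SeqMonk for analysis of the data, without stating which of them made these values. Methylation reads were aligned with Bismark 0.14.0 (RRBS) or 0.10.0 (PBAT, deduplicated) after Trim Galore 0.3.5. The authors deposited the percent methylated and the counts of methylated and unmethylated calls at each cytosine, strands apart.

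RPKM values were scaled by a trimmed mean of ratios (30% by ratio, 5% by level), and log2(scaled RPKM + 0.1) of the 8 libraries of growing oocytes was fitted with limma 3.58.1 in R 4.3.3, with a mean per size class, a trend in the spread and Benjamini-Hochberg adjustment over 10129 genes (two-sided, threshold 0.05). On simulated data with independent libraries the fit found 77 of 100 genes changed 2-fold and 100 of 100 changed 4-fold, with 10 false calls. The A and B deviations of the real libraries were correlated among the smaller classes, so these rates may not hold for them. Cytosines of the autosomes and the X chromosome were kept from a coverage of 5 reads. A gene body needed 4 kb and 10 positions, and a start (500 bp to each side) or intragenic set (over 1 kb from any start) 5 positions in each of the 4 RRBS libraries of 40–45 and 60–65 µm. Of 20582 genes matched to RefSeq by symbol, 99.6% overlapped their locus.

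Named genes were the 12 largest rises and the 12 largest falls among called genes with libraries that did not overlap and a mean of at least 5 RPKM in the higher class, leaving out predicted names and 58 repeated symbols. From each of 22 lists the first 4 tested members and the called riser and faller with the largest change were named, and for methylation the 5 risen and 5 fallen genes with the largest intragenic gain and the 3 and 3 named genes with most PBAT positions. Genes and lists were chosen with earlier results of these data known. Some named members of 2 lists are not reported here.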

Additional observations from a re-analysis of the deposited data

How the results depend on the processing

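All 24 named genes kept direction and call under each of the 12 alternatives. Of 223 calls among these genes and the gene lists (195 tested at a minimum of 2 RPKM), 20 were lost without scaling. With no filter 21 were lost (Zp2, Zp3, Padi6 and Kdm2b among them). The other alternatives that kept all 8 libraries lost 0 to 3, and a fit of the 4 compared libraries only lost 6. Without 1 library more calls were lost than under any of these. A minimum of 2 RPKM, with 6873 genes tested, gave 1190 risen and 1181 fallen genes, 181 and 90 of them at least 2-fold, and 4 fallen genes of meiotic prophase. A pseudocount of 1 gave 115 and 44 genes changed at least 2-fold. Leaving out 1 library gave 784 to 1413 risen and 570 to 1167 fallen genes (352 to 508 and 131 to 245 at least 2-fold), 6 to 27 fallen ribosomal protein genes, 11 to 29 of oxidative phosphorylation and 7 to 10 of meiotic prophase, and 60–65 µm A gave the lowest count of each. The letters A and B were not taken to pair the samples. The correlation of their deviations was 0.598 to 0.682 among the 3 smaller classes, but −0.234 to 0.107 between these and 60–65 µm, and −0.0351 between the classes compared. With the letter as a replicate block 2315 genes rose and 2276 fell (422 and 186 at least 2-fold), with 67 ribosomal protein genes, 64 of oxidative phosphorylation and 10 of meiotic prophase.

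Median body methylation without the first 2 kb was 46.5% for risen and 50.6% for fallen genes, which turned their order, and a minimum of 3 reads gave 31.8% for fallen genes. Calls of at least 2-fold gave 17.1% for the body of fallen genes, 20.2% and 5.70% for intragenic positions at 60–65 µm of risen and fallen genes and 0.733% and 0.623% for their starts. A minimum of 10 reads gave 26.0% for intragenic positions of fallen genes. Without replicate A or B the intragenic medians at 60–65 µm were 26.1% to 27.8% (risen) and 24.0% to 25.1% (fallen). PBAT has 1 library and a median of 6 calls per position, so small differences between its medians have no replicate check.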
